A study of Mus musculus with 4 samples.

Results

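The regions described here are promoters of white fat that lie before or around gene starts on a single DNA strand and that were open in every library of the series. They are merged regions that held a peak interval in each of the 4 libraries, whose distance to a gene start, as the authors' gene table gives it, was at most 1000 bp for at least 1 gene, and whose near genes all lay on the same strand, on autosomes only. Of the 12477 merged regions, 1717 met this rule, and they are called one-strand promoters below. They were chosen by the measured presence of a peak in all 4 libraries and by the measured distance of the peaks to a start, so neither is a finding here.

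ATAC-seq uses the Tn5 transposase to cut and tag accessible DNA, and it was applied here to nuclei of frozen, ground subcutaneous white adipose tissue of wild-type mice. The series holds 2 libraries from females (female 1 and female 2) and 2 from males (male 1 and male 2), and its design compares the sexes. The labels give no age, strain, diet or housing and no treatment, and leave unsaid whether both samples of a sex are different animals, and the p-values may thus measure technical spread only. The tissue was used whole, so the open chromatin is that of adipocytes, vessels, immune cells and progenitors together, and fewer cells of a type cannot be told apart from less accessible DNA per cell.

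A promoter is the stretch of DNA at which RNA polymerase II and the general transcription factors assemble. Many mammalian promoters lie in CpG islands, which are rich in the dinucleotide CG and largely free of DNA methylation, and such promoters are often open in most cell types because they drive genes that every cell needs. The nucleosome just before the start is displaced at active promoters, which leaves a gap that Tn5 reaches, and factors such as NF-Y, SP1, the ETS factors, NRF1 and YY1 bind short sequences in or near it. Some starts lie back to back with a start on the other strand and share an open gap; these are not among the one-strand promoters and serve as the set most like them.

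Peaks were fewer and lower in the male libraries. Female 1 held 10238 intervals, female 2 8022, male 1 5484 and male 2 4049, and the median summit height over all intervals ran from 38.0 to 20.6 in the same order. Heights count the overlapping tags at a summit after a scaling; the highest summits of the one-strand promoters were whole numbers in female 1 but in none of the other 3 libraries, and where the scaling came from is not stated in the material used here. Read totals are likewise not given, so the depth behind a height is unknown. Male 2 stood apart in shape as well as in height: its intervals had a median width of 284 bp, against 160 to 171 bp in the other libraries. Of 12 adipocyte markers, 8 were linked to a region in the gene table (Adipoq, Fabp4, Lep and Plin1 were not), none of them had a peak in all 4 libraries, and their summed height was 318 and 266 in the females and 165 and 115 in the males. The sums were also lower in both males for the endothelial (138, 104, 74.9 and 54.7), macrophage (79.5, 66.6, 48.8 and 31.0) and fibroblast and progenitor markers (101, 80.6, 41.0 and 43.3). Of the other marker lists, 5 of 7 endothelial genes, 2 of 7 macrophage genes, 4 of 8 fibroblast and progenitor genes, 1 of 8 mammary epithelial genes (Cldn3) and 1 of 6 muscle genes (Mb) were in the table, and only the macrophage genes, Cd68 and Cd14, had a peak in all 4 libraries. No marker of any list had its start within the limit of a one-strand promoter open in all libraries.

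The sequences below show what these promoters look like, with 1 promoter for each of 7 short motifs searched and 1 for a promoter, Mtrf1l, whose male 2 peak exceeded the other libraries' peaks. They are RefSeq windows of 300 bases on GRCm38.p6, from 250 before to 50 after the start, written 5′ to 3′ on the gene's strand with the named motif in capitals on whichever strand it matched. Positions are those of the first capital letter counted from the start. Each promoter was 1 of the 2 with the highest mean summit height among those holding the motif. Dnpep, an aspartyl aminopeptidase (chr1:75317588-75317887, minus strand), carried the NF-Y box CCAAT at -68 as its complement ATTGG. Rab40c, a RAB GTPase of ubiquitin ligases (chr17:25919665-25919964, minus strand), carried 4 SP1 boxes GGGCGG between -160 and -25. Rab8a, a RAB GTPase of the exocytic route (chr8:72160950-72161249, plus strand), carried the ETS core CCGGAAG at -35 on the other strand. Ifrd2 (chr9:107587468-107587767, plus strand) carried the YY1 motif AAGATGG at 21, inside the transcribed part. Ppp2ca, the catalytic subunit of protein phosphatase 2A (chr11:52098574-52098873, plus strand), carried the cyclic AMP response element TGACGTCA at -26. Sf1, the splicing factor that binds the branch point (chr19:6363440-6363739, plus strand), carried the NRF1 core GCGCATGC at -215 on the other strand. Rangap1, the activator of the RAN GTPase (chr15:81729870-81730169, minus strand), carried the ZFP143 motif ACTACAATT at -123 on the other strand. Mtrf1l, a mitochondrial translation release factor (chr10:5823894-5824193, minus strand), carried the nuclear receptor element AGGTCA at -205.
Dnpep: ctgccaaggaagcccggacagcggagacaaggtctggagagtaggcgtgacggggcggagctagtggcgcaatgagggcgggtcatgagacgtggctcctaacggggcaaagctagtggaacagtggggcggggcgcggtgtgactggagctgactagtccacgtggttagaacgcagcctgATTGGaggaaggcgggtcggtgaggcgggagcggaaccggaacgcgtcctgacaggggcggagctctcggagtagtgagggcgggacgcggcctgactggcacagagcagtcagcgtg
Rab40c: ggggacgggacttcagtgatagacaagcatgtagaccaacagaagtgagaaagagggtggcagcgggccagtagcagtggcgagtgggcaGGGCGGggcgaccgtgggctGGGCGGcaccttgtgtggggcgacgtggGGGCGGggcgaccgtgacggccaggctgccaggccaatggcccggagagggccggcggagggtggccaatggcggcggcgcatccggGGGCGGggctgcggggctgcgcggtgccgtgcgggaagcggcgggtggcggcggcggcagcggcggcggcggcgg
Rab8a: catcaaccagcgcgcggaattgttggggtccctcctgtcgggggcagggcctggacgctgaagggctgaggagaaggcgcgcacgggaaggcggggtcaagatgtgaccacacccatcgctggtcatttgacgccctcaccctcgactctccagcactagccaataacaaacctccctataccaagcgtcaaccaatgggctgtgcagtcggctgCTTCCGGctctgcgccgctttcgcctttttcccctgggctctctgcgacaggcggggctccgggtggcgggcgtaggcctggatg
Ifrd2: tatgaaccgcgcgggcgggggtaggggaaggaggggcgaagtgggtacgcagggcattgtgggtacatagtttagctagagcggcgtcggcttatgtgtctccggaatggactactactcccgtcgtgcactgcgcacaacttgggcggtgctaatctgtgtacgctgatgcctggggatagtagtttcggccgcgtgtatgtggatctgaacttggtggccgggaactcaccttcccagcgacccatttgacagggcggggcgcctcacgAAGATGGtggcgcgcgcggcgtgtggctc
Ppp2ca: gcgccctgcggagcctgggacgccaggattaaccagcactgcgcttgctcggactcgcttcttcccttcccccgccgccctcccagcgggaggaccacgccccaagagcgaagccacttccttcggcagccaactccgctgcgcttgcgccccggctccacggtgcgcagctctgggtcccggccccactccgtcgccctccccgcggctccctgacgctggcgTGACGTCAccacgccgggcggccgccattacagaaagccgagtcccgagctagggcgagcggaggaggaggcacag
Sf1: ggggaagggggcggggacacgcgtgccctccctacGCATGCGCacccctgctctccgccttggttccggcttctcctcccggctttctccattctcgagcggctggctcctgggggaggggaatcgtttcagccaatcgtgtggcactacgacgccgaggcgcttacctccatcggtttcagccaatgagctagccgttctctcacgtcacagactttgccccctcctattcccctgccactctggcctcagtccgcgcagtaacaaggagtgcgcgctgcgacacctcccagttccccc
Rangap1: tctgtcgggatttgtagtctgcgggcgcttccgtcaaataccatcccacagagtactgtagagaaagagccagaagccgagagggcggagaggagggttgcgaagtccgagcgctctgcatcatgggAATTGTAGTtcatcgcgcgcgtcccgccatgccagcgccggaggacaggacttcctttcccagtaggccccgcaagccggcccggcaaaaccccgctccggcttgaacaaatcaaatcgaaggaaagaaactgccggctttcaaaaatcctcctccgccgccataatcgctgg
Mtrf1l: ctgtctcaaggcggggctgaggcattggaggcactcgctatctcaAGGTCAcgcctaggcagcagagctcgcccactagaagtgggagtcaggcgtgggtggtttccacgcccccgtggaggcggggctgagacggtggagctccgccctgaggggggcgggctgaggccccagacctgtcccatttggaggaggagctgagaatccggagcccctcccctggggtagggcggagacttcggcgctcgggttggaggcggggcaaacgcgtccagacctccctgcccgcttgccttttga

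One-strand promoters with fewer peaks were common. On autosomes, 6444 merged regions had a start within the limit on a single strand only, of which 1805 (28.0%) held an interval in 1 library, 1318 in 2, 1604 in 3 and 1717 (26.6%) in 4. Among the 2447 autosomal regions open in all 4 libraries, 474 had starts on both strands and 256 had no start within the limit. The one-strand promoters were on all 19 autosomes, with the most (174) on chromosome 11 and the fewest (48) on chromosome 14. Of the members, 868 served genes on the plus strand and 849 genes on the minus strand. In all, 1703 had a single gene within the limit and 14 had 2, among them Zc3h11a with Zbed6, which lies within it, Poln with Haus3, and 4 hosts of small nucleolar RNAs (Rps3, Rpl13, Rabggtb and Dancr), the hosts chosen after their values were seen. The 1729 near genes were 14.7% of the 11736 autosomal genes of the table. For 635 of them the gene table averages over further regions, so that values per region are used below unless a value is said to be per gene.

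Regions on either side of the distance limit are given as a description. Those just inside it lay 965 bp before the start of Mex3b, 940 bp before that of Zc3h4 and 935 bp before that of Rfx5, with heights in female 1, female 2, male 1 and male 2 of 64, 55.1, 29.7 and 38.9 at Mex3b, 54.0, 43.6, 33.2 and 30.1 at Zc3h4, and 40.0, 51.8, 34.6 and 18.4 at Rfx5. Just outside it, the region of Fbxw7 lay 1017 bp before the start with 42.0, 42.7, 29.0 and 19.8, and that of Zcchc14 lay 1027 bp before the start with 94.0, 69.9, 42.4 and 49.2. Female heights on the inner and outer side of the limit overlapped in these few regions.

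Scaled peak heights of the one-strand promoters fell from female 1 to male 2. Heights before the scaling were not compared. Their median summit heights were 58.0 and 45.2 in female 1 and female 2, and 36.1 and 23.5 in male 1 and male 2. In the same order, 86.8%, 78.4%, 69.2% and 61.0% of them exceeded the library's own median over all intervals, which largely follows from the choice of regions with a peak in all 4 libraries and of the highest summit in each. They held 1831, 1800, 1782 and 1722 intervals, at least 1 each by the rule. The lowest and highest members were at 18 and 133 in female 1, at 9.86 and 125 in female 2, at 12 and 86.2 in male 1, and at 8.08 and 109 in male 2.

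**Figure D1:**
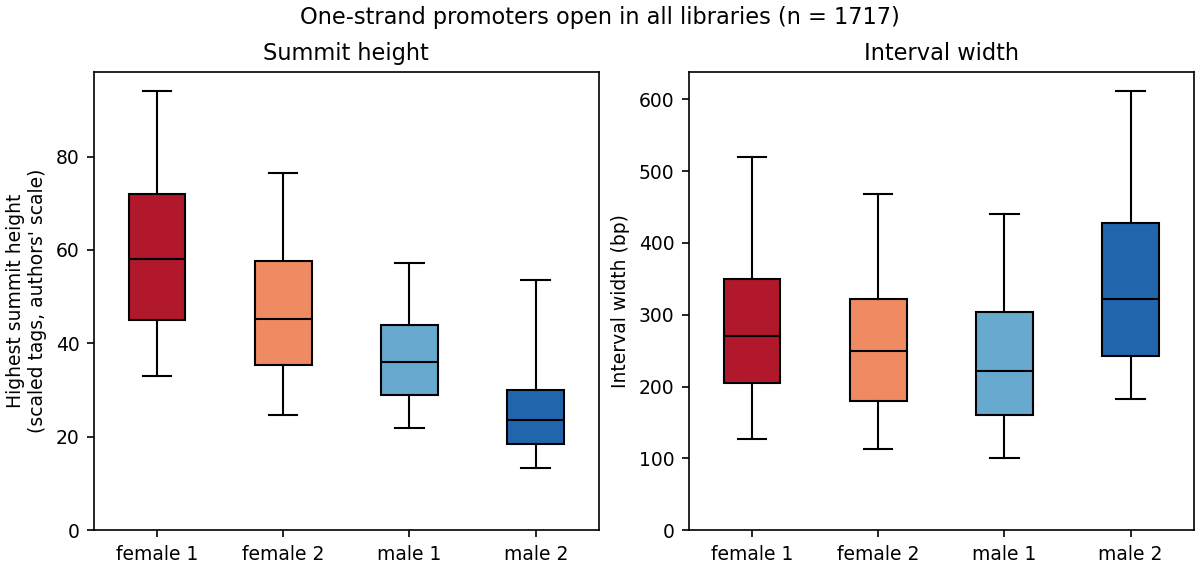
Highest summit height in scaled tags (left) and interval width in bp (right) of the 1717 one-strand promoters in each library. Lines in the boxes are medians, boxes span the quartiles and whiskers reach the 5th and 95th percentiles; median height falls from 58.0 in female 1 to 23.5 in male 2, while median width is largest, 322 bp, in male 2.

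The 10 highest members served genes of unlike roles. The promoter of Mtmr4, a phosphatase of endosomal phosphoinositides (chr11:87591760-87592351), reached 133, 110, 86.2 and 35.2 in female 1, female 2, male 1 and male 2. That of Kdm4b, a histone H3K9 demethylase (chr17:56325560-56326236), reached 127, 99.5, 78.5 and 36. That of Dnpep (chr1:75317292-75318062), whose sequence is given above, reached 123, 107, 65.7 and 42.6. In these 3 promoters the order of the libraries was the same, with both males below both females and male 2 lowest. Kat6b, a histone acetyltransferase, reached 133, 96.2, 84.8 and 41.1, but its highest summits lay 870 to 1030 bp after the start, inside the gene, so that its peak is near the limit of what the rule calls a promoter. Rps6ka5, a kinase of the MAP kinase route that phosphorylates histone H3, differed in order, with 97.0, 81.4, 65.7 and 78.6. Map3k3, Rab40c, Camsap1, Rab8a and Narf complete the 10 highest, with 105 to 122 in female 1 and 21.3 to 58.7 in male 2.

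The lowest members served Cdkn2b, an inhibitor of the cyclin D kinases, Bet1, a SNARE of the Golgi, Idua, a lysosomal glycosidase, Zdhhc13, a palmitoyltransferase, and Dcaf10, a substrate receptor of CUL4 ligases. Cdkn2b had heights of 21.0, 24.7, 16.3 and 10.3 in female 1, female 2, male 1 and male 2, and Zdhhc13 had 27, 24.7, 17.7 and 8.08. Over the 5, heights lay between 21.0 and 27 in female 1 and between 8.08 and 17.6 in male 2, so the lowest members were still called as peaks in each library, as the rule demands.

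Every list of genes that all cells use was represented. The lists named after cell types had 3 members in all, 2 of the adipocyte and 1 of the mammary epithelial list. Whether these 3 genes are particular to a cell type was not tested. Lists of genes by role were matched to the one-strand promoters, and the share of a list's genes in the table is read beside the 14.7% of all autosomal genes; no test of the difference was made. Translation factors and tRNA synthetases had 19 of 72 genes (26.4%), cytosolic ribosomal proteins 16 of 61 (26.2%), vesicle trafficking genes 43 of 173 (24.9%), splicing and RNA-binding factors 30 of 121 (24.8%), and zinc finger Zfp genes 48 of 237 (20.3%). Ubiquitin E2 enzymes and deubiquitinases had 16 of 74, proteasome subunits and chaperones 24 of 111, and cell cycle and replication genes 24 of 111, 21.6% in each. RNA polymerase II, Mediator and general factors had 15 of 73 (20.5%) and mitochondrial ribosomal proteins 11 of 60 (18.3%), while respiratory chain and ATP synthase genes had 12 of 78 (15.4%) and chromatin modifiers 13 of 85 (15.3%), near the share of all genes. Genes with only a both-strand promoter open in all libraries do not count here. In the lists named so far they ran from 2.53% (zinc finger Zfp genes) to 15.0% (mitochondrial ribosomal proteins), against 8.10% of all genes. They were 3.28% of cytosolic ribosomal proteins and 11.5% of respiratory chain and ATP synthase genes. The adipocyte identity list had 2 of 24 genes (8.33%) and the mammary epithelial list 1 of 4, while the lists of endothelium and mural cells (8 genes), leukocytes (4), fibroblasts and progenitors (5) and skeletal muscle (2) had none.

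Among genes that make proteins, the promoter of Eif5, the factor that triggers GTP hydrolysis at the start codon, had heights of 88.0, 74.8, 55.1 and 43.3 in female 1, female 2, male 1 and male 2. That of Rpl27, a protein of the large ribosomal subunit, had 78.0, 64.1, 47.4 and 30.1. Eef1a1, the elongation factor that delivers tRNA, had 87.0, 90.4, 51.6 and 26.4. Over the 16 cytosolic ribosomal promoters the median was 52.5, 41.1, 29.0 and 23.9, below the medians of all members in 3 libraries and just above in male 2. Over the 19 of translation factors and tRNA synthetases it was 59.0, 46.0, 37.5 and 24.2, slightly above those of all members in each library. In the mitochondria, Mrps16 had 73.0, 63.3, 43.1 and 35.2, and Ndufv3, a subunit of complex I, had 74.0, 43.6, 40.3 and 44.1. At Ndufv3 male 2 exceeded male 1 and lay above female 2, so the sexes overlapped.

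Promoters of RNA processing and transcription varied in the order of their libraries. Srrm2, a protein of nuclear speckles, had 87.0, 81.4, 44.5 and 36.7, and Rbm25, a splicing regulator, had 93.0, 72.3, 54.4 and 24.2. Ell, an elongation factor of RNA polymerase II, had 84.0, 60.0, 52.3 and 28.6, and in these 3 promoters the heights fell from female 1 to male 2. Med11, a subunit of Mediator, had 70.0, 51.8, 33.2 and 39.7, with male 2 above male 1, and Ddx39, an RNA helicase, had 69.0, 74.8, 46.7 and 41.1, with female 2 highest. In the group of protein turnover, the 16 promoters of ubiquitin E2 enzymes and deubiquitinases had medians of 70.0, 61.7, 39.9 and 24.2, above those of all members in each library. Among them Usp22, the deubiquitinase of the SAGA complex, had 94.0, 87.1, 66.4 and 38.2, while Usp12 had 98.0, 74.0, 33.9 and 68.3 and Ube2s, which extends chains for the anaphase-promoting complex, had 78.0, 63.3, 45.9 and 65.4. In both of the latter male 2 was above male 1, and in Ube2s it was above female 2.

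Promoters of regulated genes were also present. Immediate early genes had 6 of 20 (30%), namely Fosl2, Klf2, Jun, Klf6, Atf3 and Btg1. Fosl2, a partner of JUN in the AP-1 factor, had 80.0, 60.8, 48.8 and 38.2 at a summit 696 bp before the start in all 4 libraries, and Jun had 55.0, 58.4, 44.5 and 35.2. Of 18 circadian clock genes 3 were members: Nr1d2, a heme-binding repressor, with 76.0, 61.7, 36.1 and 77.1, Cry2, a repressor of CLOCK and BMAL1, with 79.0, 55.1, 39.6 and 33.8, and Arntl, which encodes BMAL1, with 61.0, 55.9, 43.8 and 19.1. The 2 genes from the adipocyte identity list were Adipor1, a receptor of adiponectin, with 62.0, 76.4, 36.1 and 15.4, and Acsl1, which activates fatty acids, with 60.0, 46.0, 48.8 and 14.7. Grhl1, from the mammary epithelial list, had 52.0, 41.9, 47.4 and 11.7. In these 3 genes male 2 was the lowest by a wide margin, whereas at Nr1d2 it was the highest. Of all members, male 2 was the lowest library at 83.5% and the highest at 3.67%.

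**Figure D2:**
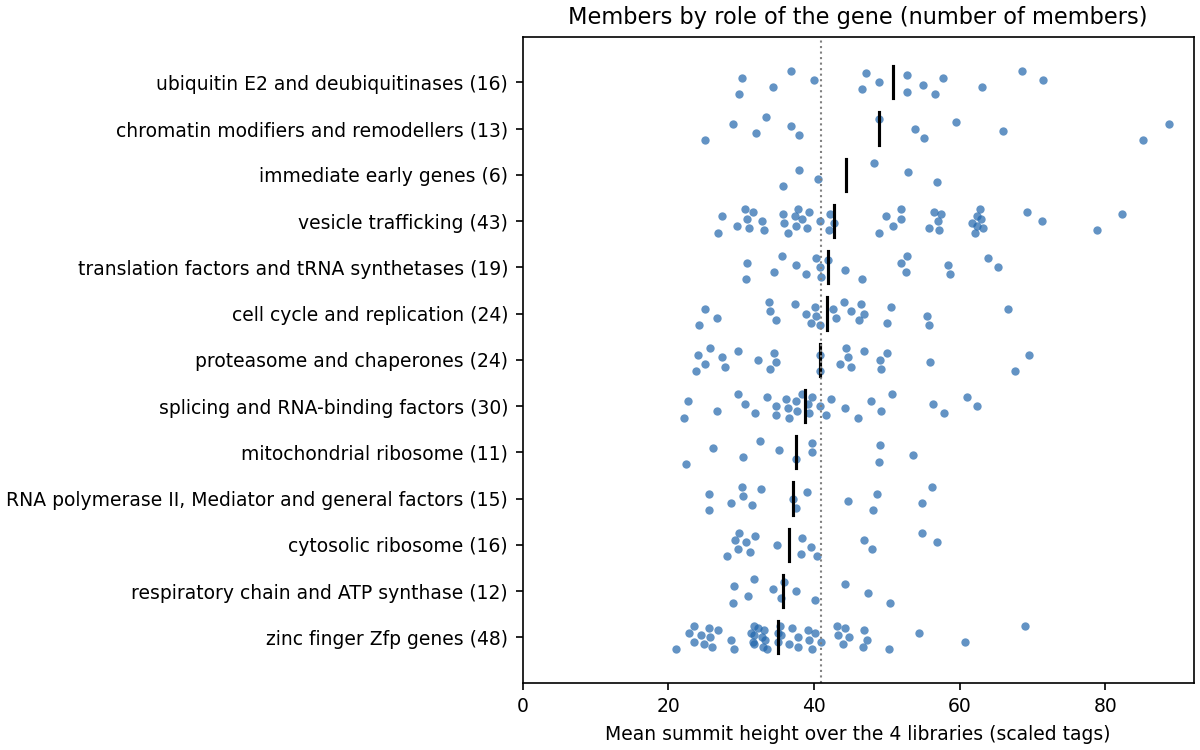
Mean summit height over the 4 libraries, in scaled tags, for the members of each role list with at least 6 members (number of members in brackets). Points are promoters, short black lines are list medians and the dotted line is the median of all members, 41.0; the list medians run from 35.1 for zinc finger Zfp genes to 50.9 for ubiquitin E2 enzymes and deubiquitinases.

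The peaks lay just before the start. Along the gene, the median position of the highest summit was -85 bp in female 1, female 2 and male 1 and -73 bp in male 2. The summit lay before the start in 81.1%, 80.2%, 79.3% and 70.8% of members, within 100 bp of it in 49.2%, 48.9%, 49.8% and 45.9%, and more than 500 bp from it in about 4% of members in each library. Male 2 thus had fewer summits before the start than the other 3 libraries. Averaged by sex, the median position of females was -85 ± 0 bp and that of males -79 ± 8.49 bp (SD, n = 2 per sex, exact permutation test, two-sided, p = 1.0). Without ties the smallest possible p of this test is 0.33. Here 3 libraries shared a median, so every split gave the same absolute difference and the p could not be lower. Height, width and position were compared with this permutation test, and each had an adjusted p of 1.0.

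The position differed by the strand of the gene in every library. At plus-strand genes the median was -68, -65, -67 and -64 bp in female 1, female 2, male 1 and male 2, and at minus-strand genes -102, -106, -101 and -82 bp. Deposited summits sat on a grid: 92.7% were at multiples of 32 bp and 99.7% at multiples of 16 bp of the chromosome. Whether the grid or the authors' placing of tags contributed to the difference between strands was not tested, and differences in position of up to 32 bp are within the grid.

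**Figure D3:**
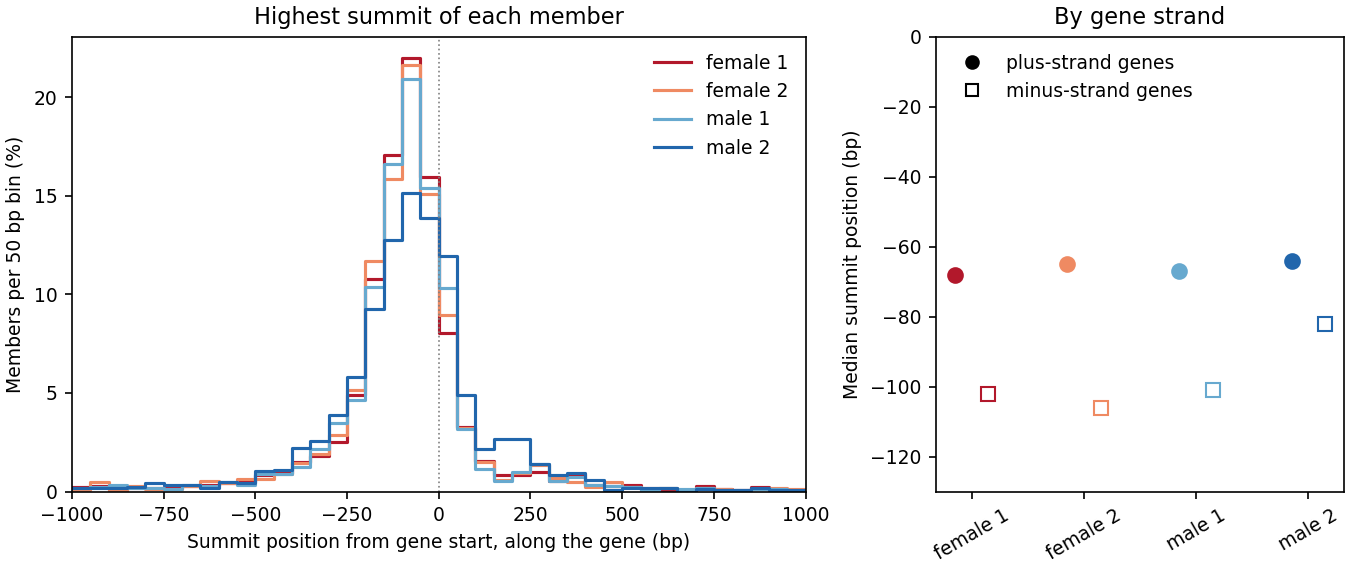
Left, share of the 1717 one-strand promoters (percent per 50 bp bin) by position of the highest summit from the gene start, along the gene, in bp, with a line per library. Right, median summit position of plus-strand (filled circles) and minus-strand genes (open squares) in each library; plus-strand medians lie between -68 and -64 bp and minus-strand medians between -106 and -82 bp.

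Female 1, female 2 and male 1 placed the summits alike, and male 2 did not. Pairs among these 3 had their summits within 32 bp of each other at 63.7% to 67.2% of the members, whereas pairs with male 2 did so at 38.3% to 40.5%. All 4 summits lay within 32 bp at 292 members (17.0%), with a median span of 96 bp. Without male 2, the 3 remaining summits lay that close at 781 members (45.5%), with a median span of 64 bp, and without any other single library at 23.9% to 24.4%. Fosl2 and Alkbh6 had the same summit in all 4 libraries, at -696 and -81 bp, while the summit of Mtrf1l was at -89 bp in 3 libraries and at -441 bp in male 2. The heights showed a like split as a description over the 1717 members, which share library and scaling: Spearman's rho was 0.807 between the females, 0.768 and 0.772 between male 1 and each female, and 0.404 to 0.435 between male 2 and the others.

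Intervals were widest in male 2. Median widths were 271, 250, 222 and 322 bp in female 1, female 2, male 1 and male 2. For the median width, females averaged 260.5 ± 14.8 bp and males 272 ± 70.7 bp (SD, n = 2 per sex; exact permutation test, two-sided, p = 1.0); with male 2 left out, the male value was 38.5 bp below the female one, so the direction rests on that library. The widest merged region, 1185 bp, was at the predicted gene Gm10910, which the naming rule leaves out, and the next were those of Sdccag8 (994 bp), Nfe2l1 (974 bp) and Sap130 (963 bp). At Sdccag8, a centrosomal protein, the intervals were 191, 174, 105 and 994 bp wide, and at Nfe2l1, which induces proteasome genes, 323, 298, 224 and 910 bp, so in both the width came from male 2.

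Compared with the 474 promoters that had starts on both strands and were open in all libraries, the one-strand promoters differed in median height, one-strand minus both-strand, by 0, -0.822, -0.707 and -0.367 in female 1, female 2, male 1 and male 2 (exact sign-flip permutation test over the 4 libraries, two-sided, p = 0.25, adjusted over the 3 measures 0.25). The intervals were narrower in all 4 libraries, by a median difference of -26, -9, -9.5 and -38.5 bp (exact permutation p = 0.13, adjusted 0.188), and the summits lay farther before the start, by -29, -28.5, -27 and -16 bp (exact permutation p = 0.13, adjusted 0.188). With 4 libraries the smallest possible p is 0.13, so neither could pass 0.05. At the both-strand promoters the nearer of the starts was taken, which by itself brings the summit closer to a start.

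The promoter windows were rich in CpG. A RefSeq promoter window matched 1430 of the 1717 members (83.3%), and for 1350 the window overlapped the region; these are used for sequence. Their median GC content was 63.0% with 24 CpG dinucleotides per 300 bases, and the median ratio of observed to expected CpG was 0.825. By the usual cuts for an island (GC above 50% and a ratio above 0.6, applied to a window shorter than an island) 1177 (87.2%) were island-like and 173 were not. The share was 78.4% of 3141 one-strand promoters open in 1 to 3 libraries, 91.3% of 393 both-strand promoters open in all 4, 34.6% of 25748 autosomal windows of the table and 47.0% of its 16457 protein-coding windows. Members thus lay between the less widely open one-strand promoters and the both-strand promoters; these shares are descriptions without a test.

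Members with more CpG had summits farther before the start and somewhat higher peaks. When the 1350 members were ranked by CpG count and split into 3 groups of 450, the median height was 55.0, 57.0 and 62.0 in female 1 from the group with the fewest CpG to that with the most, and 22, 23.5 and 25 in male 2. The median position went from -62 to -89.5 and -109 bp in female 1, from -62 to -89 and -106 bp in female 2, from -59.5 to -86.5 and -106 bp in male 1, and from -40.5 to -69 and -110 bp in male 2. The order was thus the same in all 4 libraries. Median widths from the first to the last group were 246, 263 and 305.5 bp in female 1, 236.5, 245 and 276 bp in female 2, and 208, 219 and 249 bp in male 1. In male 2 they were 322, 322 and 341 bp, with no step between the first 2 groups.

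The boxes of SP1 and KLF factors and of NF-Y were the most frequent of the motifs searched. All 13 motifs were searched on both strands of the windows. The SP1 and KLF box GGGCGG was in 77.9% of the members' windows, against 73.2% of the less widely open one-strand promoters and 36.3% of all windows. The NF-Y box CCAAT was in 54.4%, against 38.9% and 37.8%. The ETS core CCGGAAG was in 20.6% (21.4% and 9.29%), the NRF1 core GCGCATGC in 7.19% (7.20% and 2.80%), and the YY1 motif AAGATGG in 9.56% (6.94% and 6.51%). The CRE TGACGTCA was in 4.22% (3.50% and 1.92%), its part TGACG, which any CRE also holds, in 40.4% (33.0% and 21.2%), and the ZFP143 motif ACTACAATT in 1.41% (0.669% and 0.454%). The CTCF core AGGGGGCG, which can overlap a GGGCGG box by its last letters, was in 15.4% (12.8% and 6.20%), and the E-box CACGTG in 10.1% (11.9% and 7.23%). Rarer in the members than in all windows were the TATA box TATAAA (4.15%, against 5.67% and 14.2%), the AP-1 motif TGANTCA (4.07%, against 3.76% and 7.99%) and the nuclear receptor element AGGTCA (10.0%, against 11.1% and 16%). The both-strand promoters open in all 4 libraries were near the members for the NF-Y box (57.0%) and the GGGCGG box (75.6%), held the ETS core (29.3%) and TGACG (45.5%) more often, and held the CTCF core less often (10.7%), so the frequent NF-Y box is shared with that set. GC-rich windows hold GC-rich letters more often and AT-rich letters less often, and no correction for base content was made. Of the protein-coding windows alone, 47.3% held the GGGCGG box, 38.95% the NF-Y box and 12.3% the ETS core.

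**Figure D4:**
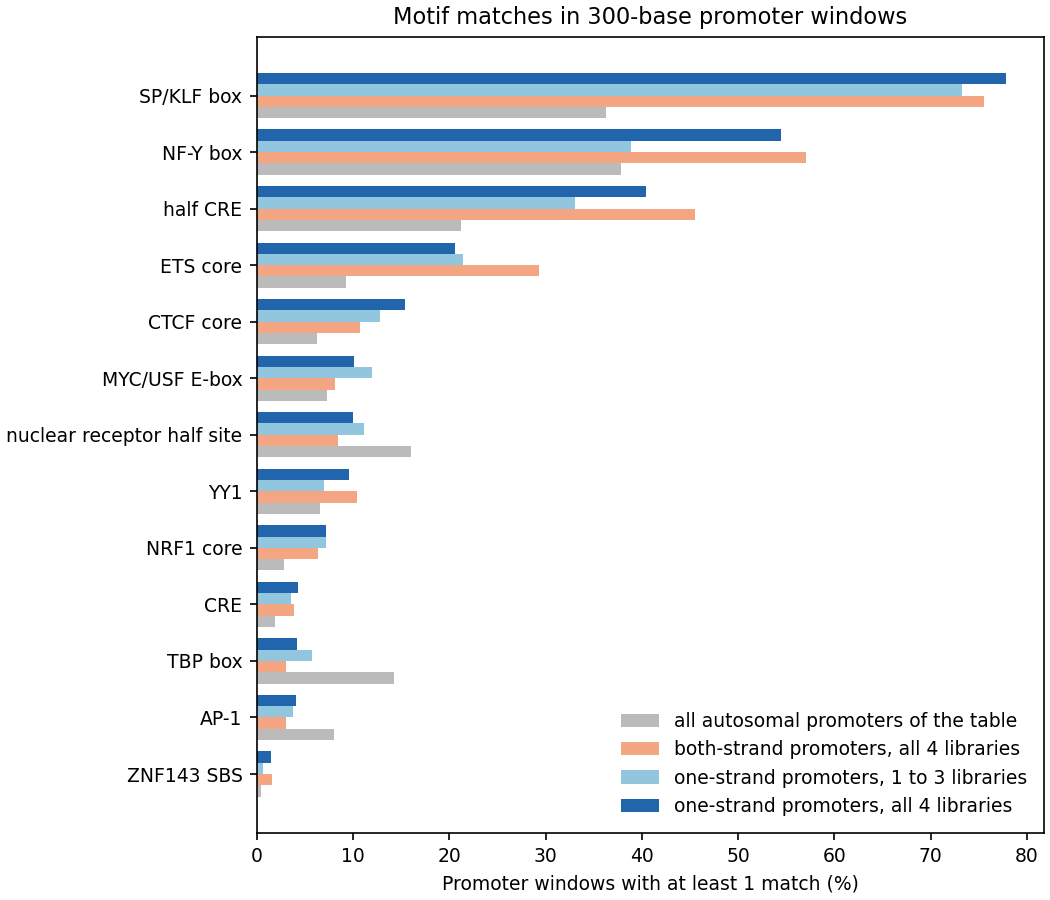
Share of 300-base promoter windows, in percent, with at least 1 match to each of the 13 motifs on either strand, for 1350 one-strand promoters open in all 4 libraries, 3141 open in 1 to 3 libraries, 393 both-strand promoters open in all 4 and 25748 autosomal windows of the table. The SP/KLF box is the GGGCGG motif of the text and the TBP box its TATA box; the NF-Y box is in 54.4%, 38.9%, 57.0% and 37.8% of these sets.

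Of the 300 bases of a window 83.3% lie before the start, and the matches are read beside that share. Here a match is placed by its middle, not by its first letter as in the sequences above. NF-Y boxes had a median position of -83.5 bp, and 94.1% of 1471 matches lay before the start, as in Dnpep; NRF1 and CTCF cores had medians near it, at -84 and -85.5 bp. ETS cores lay nearer, at a median of -38.5 bp, as in Rab8a, and YY1 motifs straddled the start, with 58.4% of 137 matches before it and the rest after it, as in Ifrd2. CRE matches had a median of -43 bp, with Ppp2ca as the highest promoter of a named gene outside chromosome 18. Members with an NF-Y box had median heights of 60.0, 48.5, 38.2 and 24.2 in female 1, female 2, male 1 and male 2, against 54.0, 41.9, 33.9 and 22 without, and those with a GGGCGG box 60.0, 46.9, 37.5 and 23.5, against 50, 41.9, 33.2 and 22. For the CRE the order was the opposite, with 51.0, 36.2, 29.7 and 22 in the 57 members that held it and 58.0, 46.0, 36.8 and 23.5 in the rest. Members with an ETS core were also lower, with 55.5, 41.9, 33.9 and 22.8 against 59.0, 46.9, 37.5 and 23.5 without. The same held for the TATA box and the AP-1 motif. For the motifs named so far in this comparison, the direction was the same in all 4 libraries. The remaining motifs were tied or mixed across libraries. No test was made, since the members of a library are not replicates.

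No one-strand promoter passed the test between the sexes, although most were lower in both males. In the limma fit of log2(height + 9) over all 11993 genes, 0 of the 1729 near genes passed a Benjamini-Hochberg adjusted p of 0.05 in either direction, against 71 genes (0.592%) lower and 0 (0%) higher in males in the whole table. The smallest adjusted p of a near gene was 0.0747. At an unadjusted p under 0.05, 440 near genes (25.4%) were lower and 0 higher, against 31.4% and 0.00834% of all genes. Near genes lie by a region with a peak in all 4 libraries, a rule not applied to the whole table, so these shares are not like for like. After the lowest 25% of the table by mean height was dropped, 0 of 8994 genes and 0 of 1703 near genes passed in either direction. The gap of 0 against 71 was thus absent among the higher genes. In that fit 438 near genes and 2736 genes in all were lower at an unadjusted p under 0.05. In the limma fit of log2 summit height over the 2478 regions open in all libraries, 0 of the 1717 members and 0 (0%) of all regions passed in either direction, the smallest Benjamini-Hochberg adjusted p of a member was 0.141, and 506 members (29.5%) were lower and 0 higher at an unadjusted p under 0.05, against 29.1% and 0% of all regions. The spread in both fits was taken from all features, not from each promoter's own samples, and it holds the gap in height between libraries of a sex.

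The shift was common to the whole table. The median difference of males minus females was -0.63 over all genes and -0.64 over the near genes on the log2(height + 9) scale, and -0.82 on the log2 scale over all regions and over the members. Both males lay below both females at 1435 near genes (83%), against 76.4% of all genes, and at 1362 members (79.3%), against 79.6% of regions. Both males lay above both females at 2 near genes (0.116%), against 0.35%, and at 4 members (0.233%), against 0.282%. For the members' median height, females averaged 51.6 ± 9.04 and males 29.8 ± 8.88 (SD, n = 2 per sex; exact permutation test, two-sided, p = 0.33, the smallest possible). When each library was centred on its median, 0 near genes and 0 members passed (limma, 0% of all genes and regions), with 39 near genes (2.26%) lower and 41 (2.37%) higher at an unadjusted p under 0.05, against 3.64% and 4.39% of all genes. Of the members, 42 (2.45%) were lower and 56 (3.26%) higher, against 2.38% and 3.39% of all regions. How much of the shift comes from the scaling was not tested, and tissue and depth cannot be told apart with these libraries.

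The largest differences were negative, and none passed the test. Gpr155, a lysosomal cholesterol sensor (chr2:73386361-73386876), had heights of 90.0, 83.0, 44.5 and 16.9 in female 1, female 2, male 1 and male 2. Its difference was -1.36 ± 0.411 (SE) per gene on the log2(height + 9) scale, which is -0.73 from the median gene (limma, Benjamini-Hochberg adjusted p = 0.0747). Arpc5, a subunit of the ARP2/3 complex that nucleates branched actin (chr1:152766378-152766785), had 61.0, 69.1, 25.4 and 16.2, with a difference of -1.33 per gene. Both were picked among genes whose sexes did not overlap, so the lack of overlap follows from the choice. The other large differences per gene were at Xpo1, the nuclear export receptor, Otud4, a deubiquitinase, Kdsr, an enzyme of sphingolipid synthesis, Raly, an RNA-binding protein, Zbtb9, Camsap1, which binds microtubule minus ends, Dnajc3, a chaperone of the endoplasmic reticulum, and Nek4, a kinase, all between -1.35 and -1.22. Per region, Trappc9, a subunit of the TRAPP complex of vesicle traffic (chr15:73061016-73061339), had 87.0, 84.7, 36.1 and 18.4 and the largest difference, -1.74 ± 0.506 on the log2 scale (limma, Benjamini-Hochberg adjusted p = 0.141). Uqcrfs1, the iron-sulfur protein of complex III (chr13:30545155-30545494), had 59.0, 43.6, 25.4 and 9.55, with a difference of -1.70, and Alkbh6 had 77.0, 83.8, 41.7 and 15.4, with -1.66.

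Few promoters were higher in both males. Mga, a MAX-binding repressor (chr2:119897090-119897550), had 28.0, 17.3, 36.8 and 31.6 in female 1, female 2, male 1 and male 2, a difference of 0.63 on the log2 scale and of 1.45 relative to the median of all regions (limma, Benjamini-Hochberg adjusted p = 0.288). Fbxo42, an F-box protein (chr4:141147635-141147952), had 21.0, 20.6, 21.9 and 42.6, so that its difference of 0.56 came from male 2. Vps13a, a lipid transfer protein at membrane contacts (chr19:16780940-16781162), had 28.0, 24.7, 28.3 and 28.6, with 0.11 per region and 0.09 per gene. The fourth was the unnamed transcript 2900076A07Rik, with 28.0, 23.8, 33.9 and 30.1, which the naming rule leaves out and which was added after its values were seen. None of these promoters passed the test, and all of them were low in both females, between 17.3 and 28.0. Low female heights follow in part from choosing promoters in which both males were higher.

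**Figure D5:**
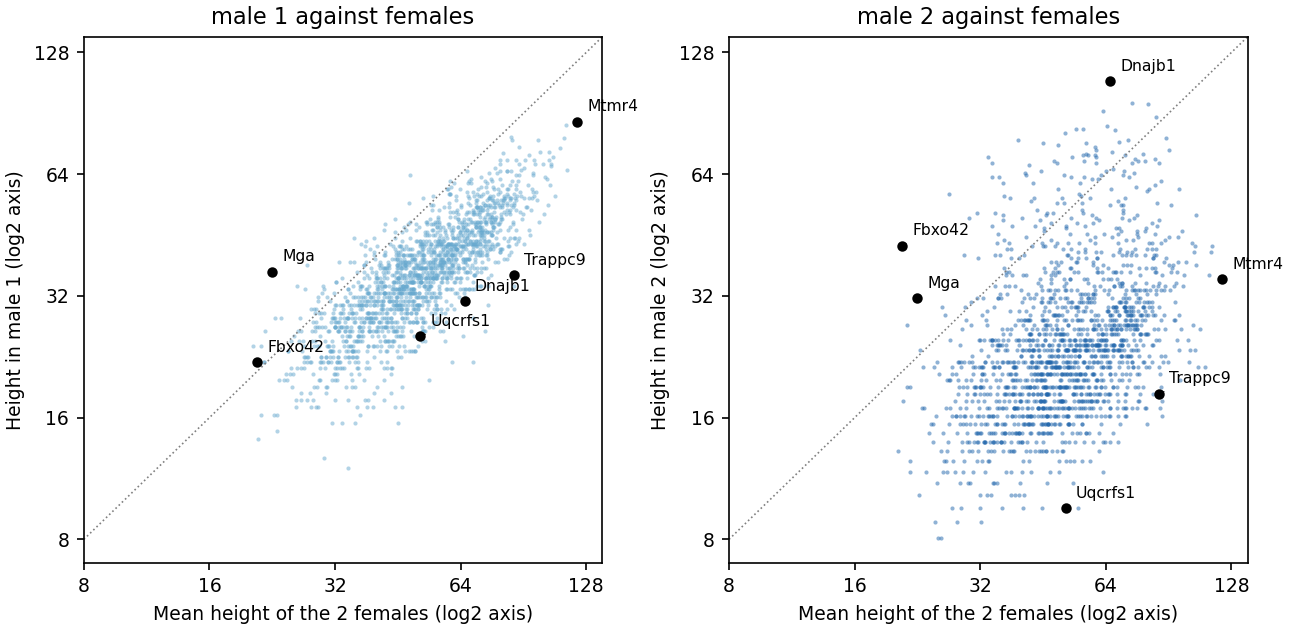
Highest summit height of the 1717 one-strand promoters in male 1 (left) and male 2 (right) against the mean of both females, in scaled tags on log2 axes, with a point per promoter and the line of equal height dotted. Male 1 lies close to a line below equality, while male 2 scatters widely, with Dnajb1 at 109 and Uqcrfs1 at 9.55.

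Male 2 ranked the promoters differently from the other libraries. In scaled height, female 1 was the highest library at 1422 members (82.8%) and male 2 the lowest at 1433 (83.5%). The full order female 1, female 2, male 1, male 2 held at 1054 (61.4%). This order depends on the scaling of each library. Male 2 was nevertheless the highest at 63 members (3.67%) and above male 1 at 266 (15.5%). The most extreme was Dnajb1, a cochaperone of HSP70 (chr8:83607907-83608336), with 70.0, 60.8, 31.1 and 109. Mtrf1l followed with 82.0, 65.8, 40.3 and 96.2, Ogg1, which excises oxidised guanine, with 77.0, 49.3, 43.1 and 91.8, and Actr3, of the same ARP2/3 complex as Arpc5, with 78.0, 51.0, 43.8 and 84.4. Bag3, another cochaperone of HSP70, had 61.0, 55.1, 36.8 and 71.2, with other promoters ranked between it and Actr3. At all 5 of these promoters male 1 was the lowest library. Chaperone promoters did not all share this order. Dnajc3 had 93.0, 69.9, 39.6 and 21.3, and the 24 promoters of proteasome subunits and chaperones had medians of 49.0, 41.5, 31.1 and 26.4. A wide gap between the males follows from choosing promoters in which male 2 was highest. Apart from Dnajb1, Mtrf1l and Dnajc3, which the naming rule also gives, these genes were chosen after their values were seen.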

How the data were processed

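Tissue was sent frozen for ATAC-seq, and DNA of 100000 nuclei per library was tagged and put through 10 rounds of PCR, per the labels. The submitters' processing notes list BWA, MACS2 2.1.0 and the build mm10. Filters, removal of duplicates, the aligner's version and any Tn5 shift of reads are, in the sources used here, not given. The authors called peaks per library, merged them over the 4 libraries and linked them to genes, per the file headers. The deposited unit is signal, the coverage height at a summit, scaled per library by a factor whose origin is not stated. A library called at lower depth yields fewer peaks, so a rule that asks for a peak in all 4 depends on male 2, the library with the fewest. No per-library column was left unused (0). Read depth is unknown, and no count test was used.

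From these files the highest summit of each library in each member was taken (an overlap of at least 1 bp), with its position along the gene. The test between sexes was limma 3.58.1 (R 4.3.3) with a variance trend and no replicate block. It was run over all 11993 genes on log2(height + 9), the pseudocount 9 being the rounded-up 5th percentile of the heights above 0, and over the 2478 regions open in all libraries on log2 height; Benjamini-Hochberg adjusted p under 0.05 was the threshold. Fold changes with the added 9 understate those of low peaks. The fits were tested on simulated data with 200 changed features in 10 runs: of changes of 2 on the log2 scale 99.8% were recovered in the gene table and 95.1% over regions, and of changes of 1 38.9% and 23.2%. The simulated noise was normal and independent, with the same SD for every feature and no shift common to a library. The heights of these libraries do shift as a whole, so the recovery rates may not hold for them. Medians were compared with exact permutation tests over libraries. Python 3.11.15, pandas 2.3.3, numpy 2.4.6, scipy 1.17.1 and matplotlib 3.10.9 were used. Promoter windows are RefSeq's on GRCm38.p6, matched by gene ID, chromosome and strand; positions of exons, introns and UTRs were not used.

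The members, role lists, motifs and tests were chosen with earlier results of these data known. Genes were named by a fixed rule: the 10 highest and 5 lowest members; up to 10 genes and 5 regions per direction with the largest sex difference; up to 3 of the highest members of each role list and every adipocyte identity member; members with the most near genes, the widest and those at the distance limit; and up to 2 of the highest members per motif. Predicted, microRNA and small nucleolar RNA genes were left out as names. The sex differences were ranked only among genes and regions whose sexes did not overlap. Members on chromosome 18 were also left out when the promoters per motif were chosen. A gene that the rule also names is not reported here. Alternatives covered the distance limit, the overlap, an equal number of intervals per library, pseudocounts, filters, centring, quantile normalization, a replicate block, the trend and each library left out.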

Additional observations from a re-analysis of the deposited data

How the results depend on the processing

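The set itself held 1708 regions with a limit of 500 bp, 1717 with an overlap of at least 50% of the interval, and 1213 when each library was cut to its 4049 highest intervals. The count of near genes lower in males, 0 in the limma fit, was 36 without the variance trend and 991 with a replicate block, and ranged from 0 to 980 when each library was left out; the count of those higher ranged from 0 to 2. Over regions, 0 members were lower, 889 with a replicate block and from 0 to 1089 with a library left out, and 0 to 5 were higher. Male 1 decided these ranges: without it 980 near genes and 1089 members were lower and 2 and 5 higher, with male 2 as the lone male assumed to vary like the females, and without any other library there was 0. The cause was not tested. Replicate numbers pair nothing in the labels, so the block fit is not read as stronger evidence. Deviations of same-numbered samples correlated across features at 0.017 over genes and -0.043 over regions. That correlation takes no account of a height difference common to a whole library. Female 1 and male 1 each had the higher median height of their sex (58.0 against 45.2, and 36.1 against 23.5), which the block absorbs. The difference in median height between the sexes stayed negative with each library left out (-28.2 to -15.4). The difference in width ranged from -38.5 to 61.5 bp and turned negative without male 2 (-38.5), and that in position ranged from 0 to 12 bp. The height difference between one-strand and both-strand promoters turned from -0.474 to 0.0732 with the 500 bp limit. Of 212 alternatives for 19 results on single genes, 171 kept their direction and their side of the threshold, 41 passed the threshold in the same direction, and 0 reversed. The comparison of summits with each library left out in turn was added after seeing the data. Without read totals, how far depth limits these heights is unknown.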
